A study of Mus musculus with 9 samples.

Results

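The genes described here are 47 interferon-stimulated genes, a named list taken from the 47729 genes of the deposited expression table by their mouse symbols. All 47 were found, all varied, and all passed the filter of a mean of at least 3 that left 15623 genes for testing. RNA was sequenced from fibroblasts of the joint lining (synovial fibroblasts), grown from collagenase-digested paws of wild-type BALB/c mice for 5 passages. The 3 primed cultures came from left paws given monosodium urate (MSU) crystals, the crystals of gout, on days 0 and 9. The 3 non-primed cultures came from right paws given MSU crystals on day 9 only, and the 3 naive cultures came from paws with no injection. RNA was taken on day 18 in all groups. Paw side coincides with priming and cannot be told apart from it, primed and non-primed paws need not come from different mice, and nothing labels the animal behind a culture, so p-values measure only the spread between these cultures. Values are regularised log2 (rlog) values, on which a difference of 1 is a doubling, and rlog values of low genes are drawn towards their mean.

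Type I interferons are secreted when a cell senses foreign or misplaced nucleic acid. They bind a receptor made of IFNAR1 and IFNAR2, whose kinases activate STAT2 among other factors. STAT2 and IRF9 then bind, in a complex, a promoter element, the interferon-stimulated response element (ISRE), in front of a shared set of antiviral genes, while interferon gamma acts on a second element, the gamma-activated site (GAS). Fibroblasts carry both receptors, keep a low basal level of these genes, and are a classical source of interferon beta. Bulk RNA does not tell more cells of a type from more RNA per cell.

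Many but not all of these genes held a letter match to the ISRE, and examples are shown here. Its core was searched as GAAA, any 2 bases and GAAA again, or on the other strand TTTC, any 2 bases and TTTC, in promoters from 250 bases before to 50 bases after each start site (RefSeq, GRCm38.p6). Promoters were found for 37 of the 47 genes, and 20 of the 37 (54.1%) held the core, against 1079 of 27025 genes (3.99%) in the whole promoter table. The GAS core, TTCNNNGAA, which reads the same on both strands, was held by 12 of the 37 (32.4%), against 9.55% of all genes. The promoters below are those of Isg15 (chr4:156200769-156201068, minus strand), Ifit1 (chr19:34640639-34640938, plus strand), Ifit3 (chr19:34583279-34583578, plus strand) and Ifit3b (chr19:34607707-34608006, plus strand). For contrast, that of the receptor gene Ifnar2 (chr16:91372533-91372832, plus strand) is also given. Ifnar2 had no match of the ISRE core, though it had 1 of the GAS core. Capitals mark each match of the ISRE core in these whole promoters, and GAS matches are not marked. Isg15 held 3 overlapping matches, the first 78 bases before the start, and the 3 Ifit promoters held 2 each.
Isg15: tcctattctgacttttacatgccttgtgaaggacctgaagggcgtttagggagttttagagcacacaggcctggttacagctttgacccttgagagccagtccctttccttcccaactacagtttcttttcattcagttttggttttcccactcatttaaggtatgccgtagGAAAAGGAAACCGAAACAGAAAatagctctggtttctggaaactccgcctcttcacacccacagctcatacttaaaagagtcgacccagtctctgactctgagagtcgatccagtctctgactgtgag
Ifit1: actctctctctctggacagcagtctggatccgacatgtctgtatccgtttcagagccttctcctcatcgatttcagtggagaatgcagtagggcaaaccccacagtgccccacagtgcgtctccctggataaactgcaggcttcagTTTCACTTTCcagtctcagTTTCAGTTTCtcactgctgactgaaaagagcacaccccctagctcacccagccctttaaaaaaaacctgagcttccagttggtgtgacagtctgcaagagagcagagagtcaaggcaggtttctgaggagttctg
Ifit3: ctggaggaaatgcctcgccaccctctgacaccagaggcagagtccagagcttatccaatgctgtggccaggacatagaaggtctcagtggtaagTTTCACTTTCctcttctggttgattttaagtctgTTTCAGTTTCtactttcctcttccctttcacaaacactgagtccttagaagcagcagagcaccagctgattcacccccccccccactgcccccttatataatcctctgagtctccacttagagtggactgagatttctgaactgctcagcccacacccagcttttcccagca
Ifit3b: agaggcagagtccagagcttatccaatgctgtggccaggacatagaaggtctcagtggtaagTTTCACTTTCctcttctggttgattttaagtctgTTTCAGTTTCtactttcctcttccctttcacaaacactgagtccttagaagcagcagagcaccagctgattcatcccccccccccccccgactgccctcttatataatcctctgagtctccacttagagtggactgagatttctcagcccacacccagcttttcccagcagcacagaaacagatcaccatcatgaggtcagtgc
Ifnar2: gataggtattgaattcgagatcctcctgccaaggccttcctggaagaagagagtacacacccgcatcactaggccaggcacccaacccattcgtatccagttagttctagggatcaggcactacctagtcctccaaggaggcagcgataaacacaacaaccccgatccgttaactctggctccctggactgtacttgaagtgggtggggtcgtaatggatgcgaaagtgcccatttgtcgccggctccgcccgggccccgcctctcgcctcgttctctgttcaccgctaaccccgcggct
The Ifit3 and Ifit3b promoters were identical at 258 of 260 aligned bases, and the open reading frames of the 2 genes at 1201 of 1212 bases (99.1%). The authors' counting could therefore split reads between these copies or leave them out, and the values of both are uncertain. In the other gene families examined, identity over the length of the longer reading frame did not go above 76.9% (Gbp3 with Gbp7). Over aligned bases alone it was higher, as in Mx1 with Mx2, identical at 1494 of 1818. Shorter stretches, in which capitals mark only the first match (Irgm1 has a further one that overlaps it), show the core in genes of other roles, namely Igtp (chromosome 11), Irgm1 (chromosome 11), Gbp2 (chromosome 3), Oas3 (chromosome 5), Rsad2 (chromosome 12) and Ddx58 (chromosome 4).
Igtp: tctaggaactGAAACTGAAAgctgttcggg
Irgm1: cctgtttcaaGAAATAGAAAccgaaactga
Gbp2: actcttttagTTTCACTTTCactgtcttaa
Oas3: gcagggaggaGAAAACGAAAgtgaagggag
Rsad2: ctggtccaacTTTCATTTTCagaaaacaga
Ddx58: cctgaggcagTTTCGATTTCctatggccag
The distance between a gene's lowest and highest library had a median of 1.46 among the 20 genes with the core and 1.22 among the 17 without it. Naive 2 was the lowest library for 16 of the 20 and for 10 of the 17. These are descriptions, and a missing match says only that the letters were not in this window.

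The genes moved together from culture to culture, and the naive cultures differed among themselves more than the groups did. In 28 of the 47 genes (59.6%) naive 1 and naive 3 both stood above the 7 other libraries, an order that 5.24% of all tested genes had. Naive 2 was the lowest of the 9 libraries in 32 genes (68.1%, against 19.7% of all tested genes). In 34 genes (72.3%, against 24.3%) the naive libraries enclosed all 6 libraries from injected paws. The median over the 47 genes of the deviation from each gene's own mean was 0.05, 0.25 and -0.34 in primed 1, 2 and 3, -0.17, -0.10 and -0.26 in non-primed 1, 2 and 3, and 0.44, -0.51 and 0.64 in naive 1, 2 and 3. Over all tested genes the same median lay between -0.01 and 0.01 in every library.

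**Figure D1:**
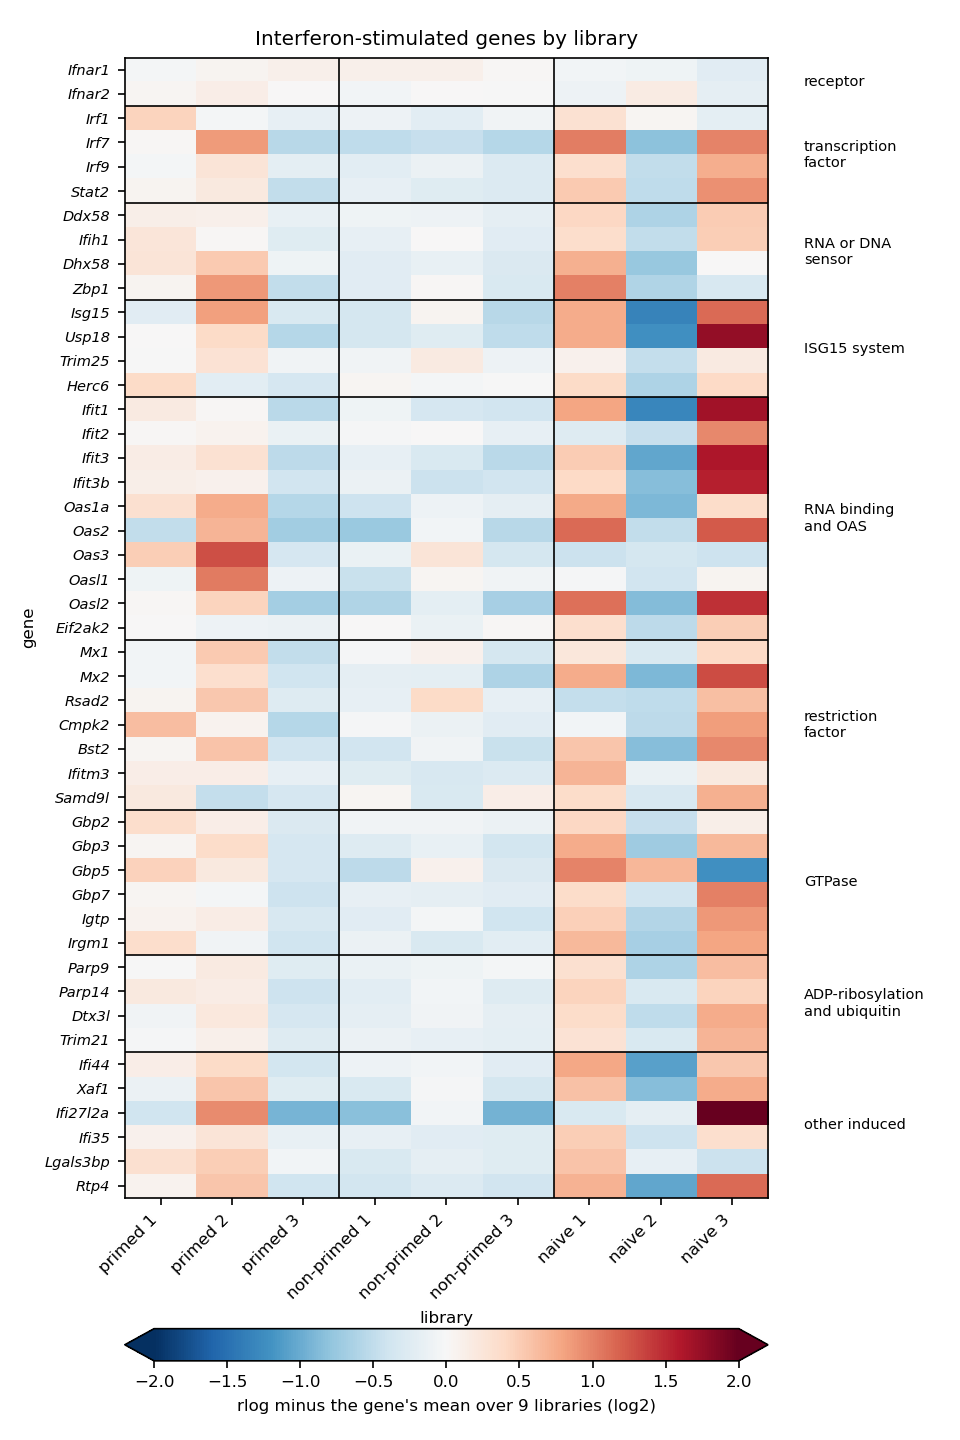
Each row is a gene, each column a library, and the colour is the rlog value minus the gene's mean over the 9 libraries (log2), with colours ending at 2 in each direction. Naive 1 and naive 3 are mostly red and naive 2 mostly blue, with primed 2 next to naive 1 and naive 3 in many rows.

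The spread within a group followed the same order. The standard deviation (SD) between libraries had a median over the 47 genes of 0.36 in primed, 0.11 in non-primed and 0.69 in naive cultures, against 0.14, 0.10 and 0.22 over all tested genes. In 43 of the 47 genes (91.5%, against 67.4% of all tested genes) the naive SD was the highest of the 3, the exceptions being Irf1, Oas3, Oasl1 and Mx1. Among the primed cultures, primed 3 was the lowest of the 3 for 45 genes (95.7%, against 24.9%), with Ifnar1 and Samd9l as exceptions. Among the 6 libraries from injected paws, primed 2 was the highest for 32 genes (68.1%, against 26.4%).

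**Figure D2:**
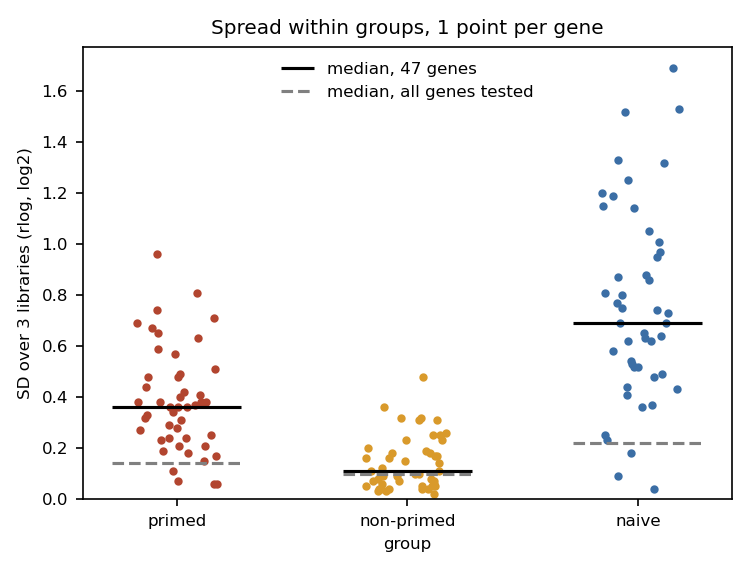
Points are the 47 genes, and the y axis is the SD over the 3 libraries of a group (rlog, log2). Solid lines are the medians of these genes (0.36, 0.11 and 0.69) and dashed lines those of all genes tested (0.14, 0.10 and 0.22).

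None of the 47 genes passed the test in any comparison, at an adjusted p below 0.05 over all tested genes in limma. In primed over naive cultures 0 of 47 passed, against 0.102% of all tested genes (0.096% higher and 0.0064% lower). In non-primed over naive cultures 0 of 47 passed, against 0.141% (0.115% higher and 0.0256% lower). Both comparisons share the naive libraries. In primed over non-primed cultures 0 of 47 passed, as did 0% of all tested genes. At an unadjusted p below 0.05 the counts were 1 gene (Oas3) in primed over naive, 2 genes (Ifnar1 and Ifitm3) in non-primed over naive and 0 genes in primed over non-primed cultures, against 16.9%, 15.4% and 1.26% of all tested genes. The SE of a difference had a median of 0.33 for these genes and of 0.15 for all tested genes.

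The sizes of the differences were as follows. Primed cultures were lower than naive ones in 35 of the 47 genes and higher in 12, with a median difference of -0.13 and a range of -0.87 (Ifi27l2a) to 0.88 (Oas3). Over all tested genes 49.8% were higher, with a median of -0.001. Non-primed cultures were lower than naive ones in 42 genes and higher in 5, with a median of -0.35 and a range of -1.35 (Ifi27l2a) to 0.32 (Oas3), where 51.7% of all tested genes were higher. Primed cultures were higher than non-primed ones in 43 genes and lower in 4, with a median of 0.20 and a range of -0.17 (Samd9l) to 0.62 (Irf7), where 50.3% of all tested genes were higher. The genes lower in primed than in non-primed cultures were Ifnar1, Herc6, Eif2ak2 and Samd9l.

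**Figure D3:**
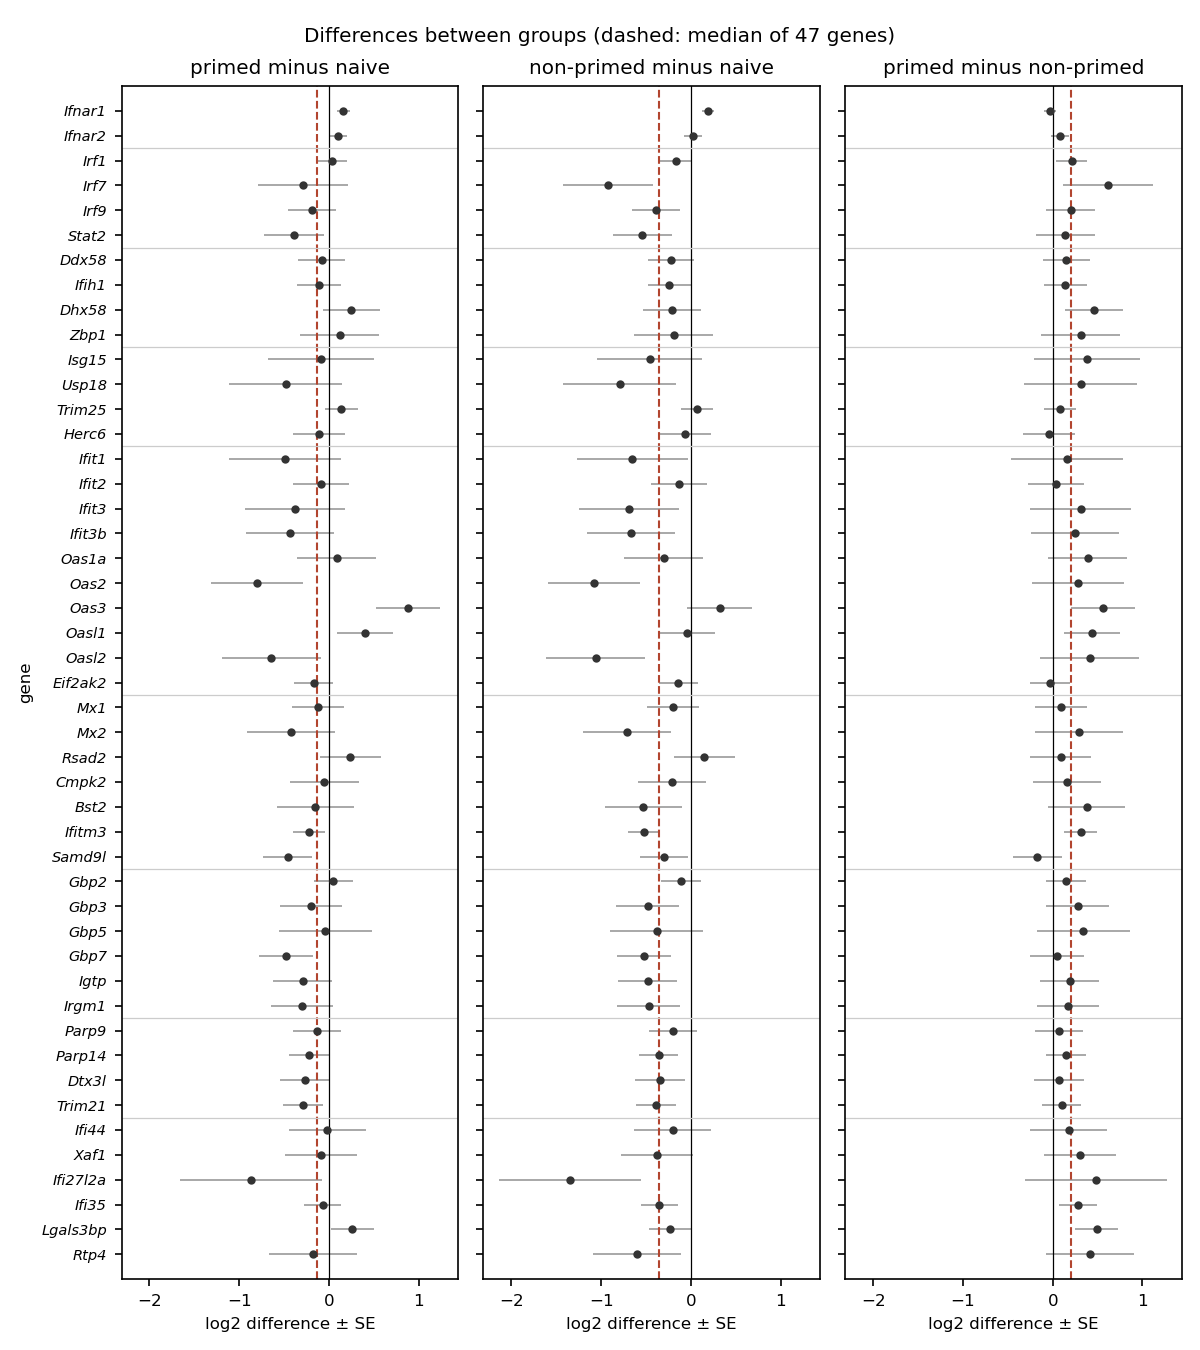
Points are log2 differences with their standard errors (SE) for each gene in the 3 comparisons, and dashed lines are the medians over the 47 genes (-0.13, -0.35 and 0.20). Most points of the middle panel lie left of 0 and most of the right panel lie right of it, while the bars, which are 1 SE, often cross 0.

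Leaving out 1 library moved these medians. Without naive 2 the median was -0.49 in primed over naive and -0.65 in non-primed over naive cultures. Of the 47 genes 1 and 7 passed, beside 356 and 355 of all 15613 genes tested in that fit. The gene in the first comparison was Eif2ak2 (-0.48, SE 0.09, adjusted p = 0.0362). The 7 in the second were Ddx58 (-0.58), Ifit1 (-1.50), Oasl2 (-1.77), Eif2ak2 (-0.45), Mx2 (-1.35), Gbp3 (-0.95) and Ifi35 (-0.63), with adjusted p from 0.0312 to 0.0484. Without naive 3 the medians were 0.08 in primed and -0.12 in non-primed cultures, with 0 genes passing, and without naive 1 they were 0.0078 and -0.23, again with 0. Without primed 3 the median of primed over naive cultures was 0.016. The median of primed over non-primed cultures was 0.087 without primed 2, 0.14 without primed 1 and 0.39 without primed 3. When libraries were weighted by their own spread, it was -0.03, with 19 genes higher and 28 lower.

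Macrophage markers also differed between the libraries. The 15 macrophage markers, all tested, had a mean of 10.03, 10.67 and 9.46 in primed, 9.67, 10.25 and 9.75 in non-primed and 7.58, 9.73 and 7.26 in naive cultures. Among naive cultures the order was the reverse of that of the interferon-stimulated genes, with naive 1 and naive 3 low and naive 2 high in all 15 markers. Among primed cultures the order was the same, with primed 3 lowest for all 15 (against 24.9% of all tested genes). Primed 2 was the highest of the 9 libraries for 14, against 16.4%. No macrophage marker passed the test, although all 15 were higher in primed and in non-primed than in naive cultures, by medians of 2.01 and 1.84. With the macrophage mean as a covariate, the median of the 47 genes was 0.39 in primed over naive and 0.16 in non-primed over naive cultures, opposite in sign to the medians without it, and 0 genes passed. This fit gives the same slope to all groups, although the orders were reversed among naive and alike among primed cultures. The macrophage mean was also lower in naive 1 and naive 3 than in every injected library. The fit therefore cannot tell group from macrophage level, and the part of the macrophage markers in the interferon values was not tested.

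The labelled cell type was checked by 11 fibroblast markers, all of which were detected and tested. Their detection does not show purity, since all 15 macrophage markers were detected as well. Means of the fibroblast markers were 13.93, 14.47 and 14.45 in primed, 14.29, 14.38 and 14.39 in non-primed and 13.86, 14.63 and 14.14 in naive cultures. Single markers differed. Naive 2 was the highest of the 9 libraries for 5 of the 11, against 19.5% of all tested genes. It was the lowest for 3, against 19.7%. The naive SD was the highest of the 3 groups for 9, against 67.4%. Markers of plasmacytoid dendritic cells and lymphocytes did not reach the test, with 3 of 7 (Siglech, Cd3e and Klrb1c) listed at 0 and 4 below 0 in all libraries. Of 5 neutrophil markers 1 was tested, and of 5 endothelial markers 2.

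**Figure D4:**
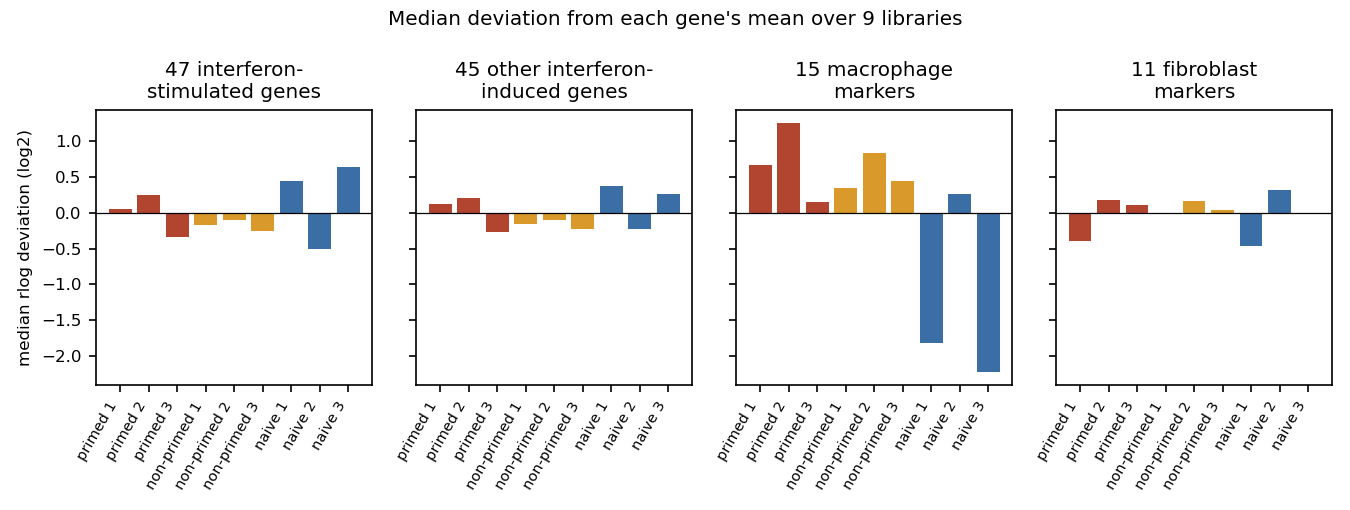
Bars are the median, over the genes of each list, of the rlog deviation from the gene's mean over 9 libraries (log2), coloured by group. The 47 genes stand at 0.44, -0.51 and 0.64 in naive 1, 2 and 3, where the macrophage markers stand at -1.82, 0.26 and -2.23.

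Few genes kept their groups apart. Both Ifnar1 and Oas3 lay above every naive library in all primed libraries, 2 of 47 genes, where 8.97% of all tested genes did so, and 0 genes lay below (8.18%). The same 2 genes lay above every naive library in all non-primed libraries, against 11.6% of all tested genes, and Ifitm3 lay below (1 gene, against 10.3%). All primed libraries lay above all non-primed ones in 5 genes, Ifnar2, Dhx58, Ifitm3, Ifi35 and Lgals3bp (10.6% of the 47, against 6.31%), and below in 0 (5.25%).

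The receptor genes varied least. Ifnar1 (ENSMUSG00000022967, chromosome 16, 91485238 to 91507441), the signalling chain that holds the kinase TYK2, was at 11.54, 11.63 and 11.68 in primed, 11.67, 11.67 and 11.60 in non-primed and 11.52, 11.49 and 11.35 in naive cultures, each triple running from culture 1 to culture 3. All injected libraries lay above the naive ones, with differences of 0.16 (SE 0.07, adjusted p = 0.309) in primed and 0.19 (SE 0.07, adjusted p = 0.269) in non-primed over naive cultures. Ifnar2 (chromosome 16, 91372783 to 91405589), the chain with the higher affinity for interferon, was at 10.64, 10.73 and 10.62 in primed, 10.55, 10.61 and 10.60 in non-primed and 10.50, 10.77 and 10.42 in naive cultures. The 3 primed values lay above the 3 non-primed ones, with a difference of 0.08 (SE 0.10, adjusted p = 1), and the naive values enclosed both.

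Among the transcription factors, Irf7, the factor that drives the second wave of interferon alpha production, had the widest range. Irf7 (ENSMUSG00000025498, chromosome 7, 141262706 to 141266481) stood at 9.16, 9.99 and 8.58 in primed, 8.63, 8.67 and 8.57 in non-primed and 10.15, 8.32 and 10.13 in naive cultures. Primed 2, naive 1 and naive 3 formed the high values, and the non-primed libraries lay close together. Its differences were -0.29 (SE 0.50, adjusted p = 0.801) in primed and -0.92 (SE 0.50, adjusted p = 0.429) in non-primed over naive cultures. Stat2 (chromosome 10, 128270559 to 128292849), the interferon-specific STAT, was at 10.70, 10.84 and 10.16 in primed, 10.49, 10.41 and 10.37 in non-primed and 11.17, 10.14 and 11.57 in naive cultures. For Irf9, its DNA-binding partner, the values were 10.64, 10.93 and 10.48 in primed, 10.47, 10.56 and 10.41 in non-primed and 11.01, 10.19 and 11.41 in naive cultures. Both were highest in naive 3, next in naive 1 and lowest in naive 2, with primed 3 almost as low for Stat2. Irf1, a factor best known from the interferon gamma response, had a narrow range of 0.66 and its highest value in primed 1.

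The sensors of nucleic acid had ranges of 0.99 (Ifih1) to 1.61 (Zbp1). Ddx58, which encodes the RNA sensor RIG-I (chromosome 4, 40203773 to 40239828), was at 11.52, 11.51 and 11.25 in primed, 11.32, 11.30 and 11.22 in non-primed and 11.81, 10.79 and 11.91 in naive cultures. Dhx58, which encodes its regulator LGP2 (chromosome 11, 100694884 to 100704271), was at 9.50, 9.77 and 9.16 in primed, 9.02, 9.09 and 8.95 in non-primed and 9.95, 8.48 and 9.25 in naive cultures. Primed libraries lay above all non-primed ones, with a difference of 0.46 (SE 0.32, adjusted p = 1), but naive libraries spanned both. Zbp1, a sensor of Z-form nucleic acid that can start necroptosis (chromosome 2, 173206612 to 173218923), was at 8.98, 9.79 and 8.42 in primed, 8.69, 8.94 and 8.62 in non-primed and 9.92, 8.31 and 8.59 in naive cultures. Zbp1 and Dhx58 were high in naive 1 and primed 2 and not in naive 3, the library in which 28 of the 47 genes were highest. Ifih1, which encodes the long RNA sensor MDA5, ran from 9.02 in naive 2 to 10.01 in naive 3.

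The ISG15 system attaches a ubiquitin-like protein to others and removes it again. Isg15 itself (ENSMUSG00000035692, chromosome 4, 156199424 to 156200818) was at 8.48, 9.53 and 8.39 in primed, 8.35, 8.76 and 8.15 in non-primed and 9.45, 7.37 and 9.84 in naive cultures. Naive libraries gave both its lowest and its highest values, 2.46 apart. Usp18, the protease that removes ISG15 and also dampens IFNAR signalling (ENSMUSG00000030107, chromosome 6, 121245906 to 121270917), was at 9.66, 10.03 and 9.07 in primed, 9.30, 9.41 and 9.13 in non-primed and 10.38, 8.42 and 11.41 in naive cultures. Its naive values lay 2.99 apart, and the differences were -0.48 (SE 0.63, adjusted p = 0.733) in primed and -0.79 (SE 0.63, adjusted p = 0.594) in non-primed over naive cultures. Herc6, the main ligase for ISG15 in the mouse (chromosome 6, 57581000 to 57664632), was at 8.12, 7.53 and 7.40 in primed, 7.77, 7.69 and 7.72 in non-primed and 8.12, 7.12 and 8.13 in naive cultures. Its high values were in primed 1, naive 1 and naive 3. Trim25, a ligase that acts on RIG-I, had a range of 0.77 and was highest in primed 2.

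The genes of RNA-binding proteins and 2'-5'-oligoadenylate synthetases did not all share a pattern. Ifit1, whose protein binds viral RNA caps (ENSMUSG00000034459, chromosome 19, 34640871 to 34650009), was at 10.82, 10.66 and 10.09 in primed, 10.55, 10.30 and 10.25 in non-primed and 11.42, 9.33 and 12.31 in naive cultures. Its differences were -0.49 (SE 0.62, adjusted p = 0.723) in primed and -0.65 (SE 0.62, adjusted p = 0.663) in non-primed over naive cultures, while naive 3 and naive 2 were 2.97 apart. Ifit3 (chromosome 19, 34583531 to 34588731) was at 10.26, 10.41 and 9.59 in primed, 9.94, 9.80 and 9.57 in non-primed and 10.61, 9.07 and 11.72 in naive cultures. Its near-identical copy Ifit3b (chromosome 19, 34607970 to 34613401) was at 9.40, 9.37 and 8.89 in primed, 9.17, 8.85 and 8.90 in non-primed and 9.68, 8.43 and 10.83 in naive cultures. In all 3 Ifit genes naive 3 was highest and naive 2 lowest, and Ifit2 shared both ends, from 10.07 to 11.49. The 4 Ifit genes lie side by side on chromosome 19, within 34550694 to 34650009.

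Within the synthetase family the genes parted. Oas2 (chromosome 5, 120730333 to 120749853) was at 5.26, 6.42 and 5.05 in primed, 5.00, 5.69 and 5.19 in non-primed and 6.88, 5.26 and 6.98 in naive cultures. Naive 1, naive 3 and primed 2 were high, and the differences were -0.80 (SE 0.51, adjusted p = 0.451) in primed and -1.08 (SE 0.51, adjusted p = 0.359) in non-primed over naive cultures. Its neighbour Oas3 (ENSMUSG00000032661, chromosome 5, 120753098 to 120777661), whose product activates RNase L, went the other way at 5.49, 6.28 and 4.66 in primed, 4.86, 5.25 and 4.65 in non-primed and 4.57, 4.64 and 4.58 in naive cultures. All injected libraries lay above the naive ones, though primed 3 and non-primed 3 only just, and primed 2 was the highest. The differences were 0.88 (SE 0.36, adjusted p = 0.267) in primed and 0.32 (SE 0.36, adjusted p = 0.715) in non-primed over naive cultures. Oasl1, which in the mouse restrains translation of Irf7 (chromosome 5, 114923240 to 114937915), was at 5.54, 6.66 and 5.52 in primed, 5.19, 5.66 and 5.55 in non-primed and 5.60, 5.25 and 5.68 in naive cultures. Only primed 2 stood apart there. Oasl2 (chromosome 5, 114896936 to 114912234), next to Oasl1, was instead at 8.84, 9.26 and 8.14 in primed, 8.22, 8.62 and 8.15 in non-primed and 9.92, 7.96 and 10.28 in naive cultures. Like Ifit1 it was highest in naive 3, next in naive 1 and lowest in naive 2, with differences of -0.64 (SE 0.55, adjusted p = 0.583) in primed and -1.06 (SE 0.55, adjusted p = 0.405) in non-primed over naive cultures. Oas1a ran from 7.99 in naive 2 to 9.65 in naive 1, and Eif2ak2, the gene of the RNA-dependent kinase PKR, from 11.20 in naive 2 to 12.21 in naive 3.

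**Figure D5:**
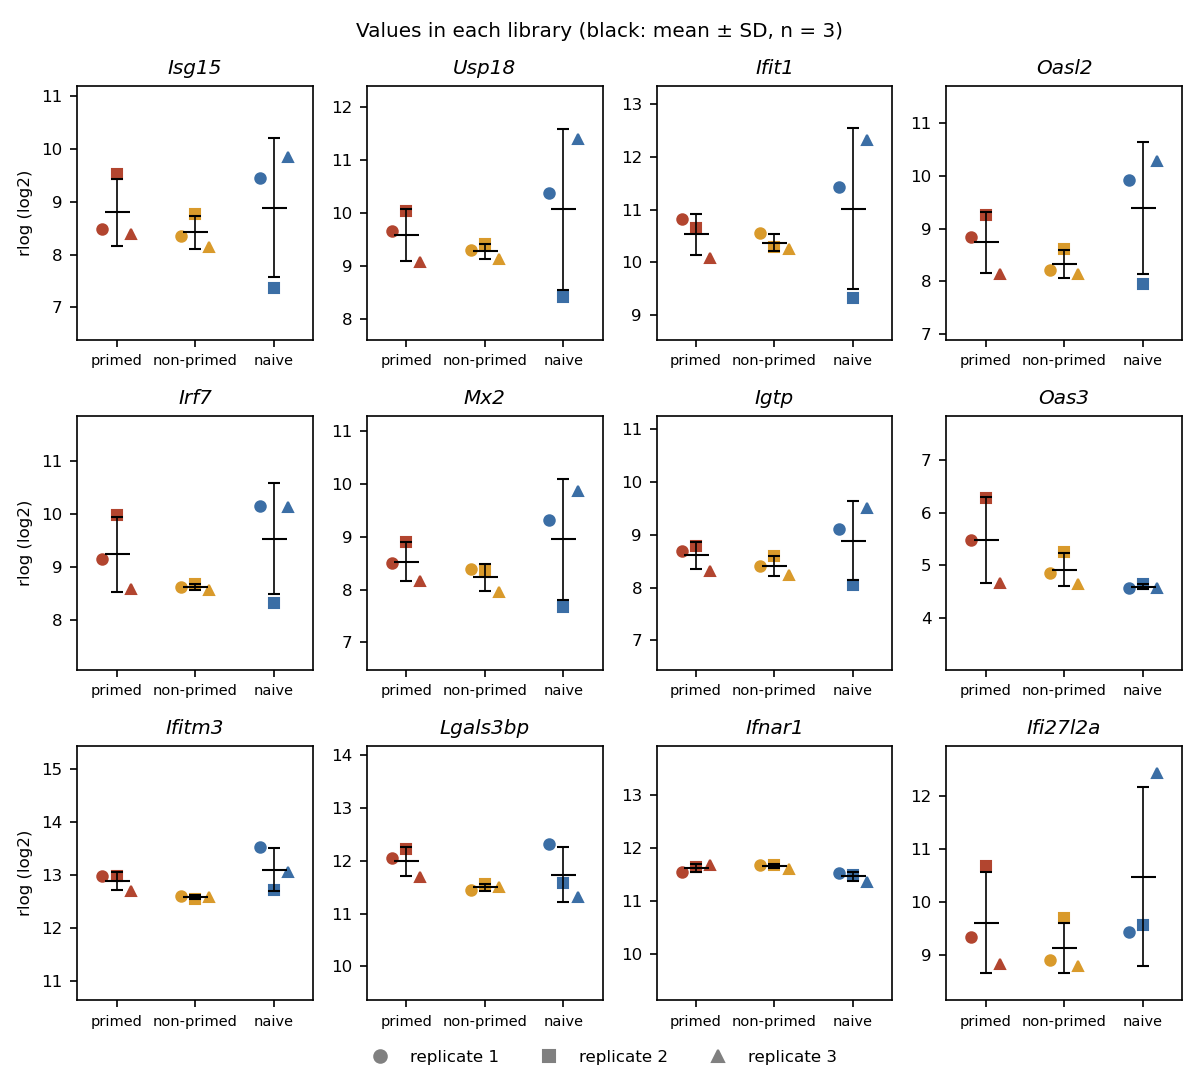
Each panel is a gene with its rlog value (log2) in the 9 libraries, marked by replicate, and the group mean with its SD (n = 3). All panels span the same height on the y axis, so that Ifnar1 appears flat while naive replicates 1 and 3 lie far above naive replicate 2 in Isg15, Usp18, Ifit1, Oasl2 and Mx2, and Oas3 has its naive values lowest.

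The restriction factors act on virus entry, replication and release. Mx2 (chromosome 16, 97535308 to 97560900), an antiviral dynamin-like GTPase, was at 8.51, 8.90 and 8.17 in primed, 8.39, 8.37 and 7.95 in non-primed and 9.31, 7.67 and 9.87 in naive cultures. It too was highest in naive 3, next in naive 1 and lowest in naive 2. Its neighbour Mx1, which is disrupted in many inbred laboratory strains, had a range of only 1.03 and its highest value in primed 2. Bst2, which encodes tetherin, a membrane protein that holds back budding virus (chromosome 8, 71534255 to 71537456), was at 11.06, 11.59 and 10.64 in primed, 10.63, 10.95 and 10.57 in non-primed and 11.58, 10.17 and 11.98 in naive cultures. Cmpk2, a mitochondrial nucleotide kinase gene (chromosome 12, 26469204 to 26479837), was at 7.03, 6.49 and 5.85 in primed, 6.39, 6.30 and 6.19 in non-primed and 6.36, 5.89 and 7.25 in naive cultures. High Cmpk2 was seen in naive 3 and primed 1. Its neighbour Rsad2, the viperin gene, ran from 5.46 in naive 2 to 6.57 in naive 3.

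Ifitm3, whose protein blocks fusion of virus with endosomes, had the smallest p-value of the list in non-primed over naive cultures. Ifitm3 (ENSMUSG00000025492, chromosome 7, 141009586 to 141010770) was at 12.98, 12.99 and 12.69 in primed, 12.61, 12.54 and 12.58 in non-primed and 13.53, 12.72 and 13.05 in naive cultures. All non-primed libraries lay below all others. The difference was -0.52 (SE 0.18, adjusted p = 0.233) in non-primed over naive and 0.31 (SE 0.18, adjusted p = 1) in primed over non-primed cultures. Samd9l, a gene of a growth-restraining antiviral protein (chromosome 6, 3372257 to 3399572), was at 11.91, 11.23 and 11.38 in primed, 11.76, 11.41 and 11.84 in non-primed and 12.08, 11.39 and 12.42 in naive cultures. It was lowest in primed 2, in contrast to most of the list, with a difference of -0.46 (SE 0.27, adjusted p = 0.408) in primed over naive cultures.

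The interferon-inducible GTPases attack the membranes around intracellular pathogens. Igtp (chromosome 11, 58199556 to 58207591) was at 8.70, 8.79 and 8.32 in primed, 8.41, 8.60 and 8.24 in non-primed and 9.11, 8.05 and 9.51 in naive cultures. Irgm1 (chromosome 11, 48861968 to 48871683), a regulator of the other immunity-related GTPases, was at 11.40, 10.97 and 10.65 in primed, 10.93, 10.74 and 10.83 in non-primed and 11.69, 10.38 and 11.84 in naive cultures. Both were highest in naive 3 and lowest in naive 2. Gbp7 (chromosome 3, 142530342 to 142550149) was at 8.59, 8.51 and 8.14 in primed, 8.39, 8.38 and 8.33 in non-primed and 8.93, 8.18 and 9.56 in naive cultures, with a difference of -0.48 (SE 0.30, adjusted p = 0.436) in primed over naive cultures. Its cluster neighbour Gbp5 (chromosome 3, 142493978 to 142522344), which promotes inflammasome assembly, was at 6.68, 6.41 and 5.88 in primed, 5.69, 6.31 and 5.93 in non-primed and 7.21, 6.88 and 5.00 in naive cultures. Gbp5 had the lowest of its 9 values in naive 3, where most of the list was highest. Gbp2 and Gbp3 ran over 0.87 and 1.45 and were lowest in naive 2.

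Of the 4 PARP and ubiquitin genes, 3 had the same highest and lowest libraries. Parp9 (chromosome 16, 35938470 to 35972605), which encodes an inactive ADP-ribosyltransferase, was at 10.68, 10.87 and 10.44 in primed, 10.55, 10.59 and 10.64 in non-primed and 11.01, 10.07 and 11.30 in naive cultures. Dtx3l (chromosome 16, 35926511 to 35939151), the ubiquitin ligase that pairs with it and whose exons overlap it, was at 10.04, 10.33 and 9.78 in primed, 9.94, 10.05 and 9.93 in non-primed and 10.48, 9.61 and 10.86 in naive cultures. Trim21, a cytosolic antibody receptor and ligase (chromosome 7, 102557921 to 102565486), was at 9.14, 9.26 and 8.90 in primed, 9.04, 8.99 and 8.96 in non-primed and 9.45, 8.86 and 9.84 in naive cultures. These 3 were highest in naive 3, next in naive 1 and lowest in naive 2. Parp14 was instead lowest in primed 3 at 10.37, with 10.48 in naive 2, and was at 11.22 in both naive 1 and naive 3. Differences of the 4 genes of this role were -0.29 to -0.13 in primed and -0.39 to -0.20 in non-primed over naive cultures, and 0 passed.

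Ifi27l2a, a small interferon alpha-inducible gene, had the widest range of the 47. Ifi27l2a (ENSMUSG00000079017, chromosome 12, 103442167 to 103443680) was at 9.34, 10.68 and 8.82 in primed, 8.91, 9.69 and 8.79 in non-primed and 9.44, 9.57 and 12.44 in naive cultures. Naive 3 alone stood far above the others, followed by primed 2, and the differences were -0.87 (SE 0.79, adjusted p = 0.605) in primed and -1.35 (SE 0.79, adjusted p = 0.462) in non-primed over naive cultures. Rtp4, a gene of a receptor transporter protein (chromosome 16, 23520291 to 23614222), was at 8.85, 9.34 and 8.38 in primed, 8.42, 8.50 and 8.40 in non-primed and 9.47, 7.74 and 9.92 in naive cultures. Ifi44 (chromosome 3, 151730922 to 151749960) was at 9.96, 10.21 and 9.46 in primed, 9.72, 9.77 and 9.59 in non-primed and 10.59, 8.74 and 10.37 in naive cultures. Both had their lowest value in naive 2.

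Lgals3bp, a secreted glycoprotein that binds galectin-3, had the smallest unadjusted p in primed over non-primed cultures. Lgals3bp (ENSMUSG00000033880, chromosome 11, 118392751 to 118402092) was at 12.06, 12.23 and 11.69 in primed, 11.44, 11.57 and 11.50 in non-primed and 12.31, 11.58 and 11.31 in naive cultures. Primed libraries lay above all non-primed ones, by 0.49 (SE 0.24, unadjusted p = 0.0701, adjusted p = 1), and naive 1 exceeded them all. Ifi35 behaved alike between the injected groups, with 10.17 ± 0.21 in primed and 9.88 ± 0.04 in non-primed cultures (SD, n = 3 each), a difference of 0.28 (SE 0.21, adjusted p = 1). Xaf1, a gene that promotes cell death, ran from 8.30 in naive 2 to 9.90 in naive 3.

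Genes that act upstream were also examined. None of the 12 listed interferon ligand genes reached the mean needed for testing. Of these, 6 were listed at 0 in all libraries and 6 had rlog values below 0 throughout, among them Ifnb1 at -1.83 to -1.79. All 23 listed genes of interferon signalling were tested, and 0 passed in any comparison. Their median differences were 0.07 in primed over naive, 0.05 in non-primed over naive and 0.04 in primed over non-primed cultures, with 13, 15 and 16 genes higher.

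Of the 4 genes of the signalling list named for their p-values, Irf8, Irf5 and Ifngr2 were higher and Mavs was lower in both injected groups than in naive cultures, none past the threshold. Irf8, a factor of myeloid cells, was at 8.43, 9.04 and 7.74 in primed, 8.06, 8.50 and 8.08 in non-primed and 5.95, 7.80 and 5.70 in naive cultures. It was 1.92 (SE 0.53, adjusted p = 0.163) higher in primed and 1.73 (SE 0.53, adjusted p = 0.198) higher in non-primed than in naive cultures, short of the threshold. Irf5, also a myeloid factor, was at 8.18, 8.74 and 7.69 in primed, 7.72, 8.22 and 7.84 in non-primed and 6.42, 7.41 and 6.72 in naive cultures. Ifngr2, a chain of the interferon gamma receptor, differed by 0.27 (SE 0.08, adjusted p = 0.175) and 0.24 (SE 0.08, adjusted p = 0.218) over naive cultures. Mavs, the adaptor of the RNA sensors, differed by -0.12 (SE 0.09, adjusted p = 0.523) and -0.27 (SE 0.09, adjusted p = 0.21).

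A further 48 interferon-induced genes outside the 47 were listed, of which 45 were tested and 0 passed. Their medians were -0.18 in primed over naive, -0.31 in non-primed over naive and 0.17 in primed over non-primed cultures, with 16, 9 and 38 of 45 higher. Naive 1 and naive 3 were both above naive 2 in 29 of the 45, against 31.4% of all tested genes. They were above the 7 other libraries in 15, against 5.24%. Primed 3 was the lowest primed library in 38, against 24.9%. Primed 2 was the highest of the 6 libraries from injected paws in 24, against 26.4%. Primed 1 and primed 2 were both above all non-primed libraries in 29, against 12.0%. Not every trait of the 47 genes was carried over. Naive 2 was the lowest of the 9 libraries in 9 of the 45, against 19.7%. The naive libraries enclosed all 6 libraries from injected paws in 13, against 24.3%. Naive 3 was the highest library in 17, against 25.1%. It was the lowest in 10, an order that was not counted over all tested genes. The smallest p-values belonged to Ifitm2 and Ms4a4d. Ifitm2, a close relative of Ifitm3, was at 13.35, 13.25 and 13.11 in primed, 13.06, 12.80 and 13.04 in non-primed and 13.49, 13.45 and 13.63 in naive cultures, with differences of -0.29 (SE 0.11, adjusted p = 0.239) in primed and -0.56 (SE 0.11, adjusted p = 0.0878) in non-primed over naive cultures. Ms4a4d was at 6.75, 9.21 and 8.49 in primed, 8.40, 8.74 and 8.50 in non-primed and 6.44, 6.46 and 6.38 in naive cultures, and differed by 1.72 (SE 0.51, adjusted p = 0.176) and 2.12 (SE 0.51, adjusted p = 0.133). Next came Gbp6, at -0.80 (SE 0.25, adjusted p = 0.192) and -0.82 (SE 0.25, adjusted p = 0.197), and Samhd1, which depletes nucleotides, at -0.20 (SE 0.12, adjusted p = 0.413) and -0.36 (SE 0.12, adjusted p = 0.21).

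Neighbouring genes did not always share a pattern. In all, 21 of the 47 genes lie within 100000 bases of another in 8 clusters. The 4 Ifit genes shared their highest and lowest libraries, as did Parp9 and Dtx3l, while neighbours parted in Oas2 and Oas3, in Oasl1 and Oasl2, in Mx1 and Mx2, and in Gbp5 and Gbp7. Exons of 17 of the 47 overlap those of another annotated gene, 10 of them on the opposite strand. The strand setting of the authors' counting is not given in the sources used here. Values of these 10, which include Irf7, Usp18, Dhx58 and Oasl1, may therefore hold reads of the partner or lack reads of their own. Values of the 7 with a partner on the same strand, Irf9 among them, are uncertain whatever that setting was.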

How the data were processed

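Synovial fibroblast cultures were profiled by RNA sequencing in 9 libraries, 3 for each of 3 groups. Per the submitters' processing notes, tools named for the authors' work are STAR 2.5.4a, featureCounts from Subread 1.6.1, cutadapt 2.5 and DESeq2, and the build is GRCm38. Tool settings and the annotation release stand in none of the sources read. The authors deposited rlog values, on a log2 scale and scaled for depth. Counts are not used here, so depth is unknown and precision rests on the spread between 3 libraries.

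Columns were matched to samples by name and genes to symbols by identifier (47224 of 47729). Coordinates are from GENCODE M21 (GRCm38). Constant genes and those with a mean rlog under 3 were left out. The 15623 others were fitted with limma 3.58.1 in R 4.3.3, with 1 mean per group over all 9 libraries (6 residual degrees of freedom), a variance trend, two-sided tests and Benjamini-Hochberg adjustment over all tested genes. The model was tested on simulated data. Motifs and sequence identity were computed in Python 3.11.15 with Biopython 1.88.

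The genes, roles and lists were chosen with earlier results of these data known. Library values are given for up to 3 genes per role with the widest range, the 5 smallest p-values per comparison, and up to 4 genes per other list with the smallest p-values. Ifnb1 and the marker examples were named beside this rule. One gene is not reported here.

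Replicate numbers 1 to 3 need not identify a mouse. Deviations from the group means correlated across genes at 0.418, 0.608 and 0.100 (above the bound of 0.1 before rounding) for primed with non-primed cultures of equal number, which were therefore taken as possibly paired. Among primed and non-primed cultures of unequal number, primed 1 with non-primed 3 also passed the bound, at 0.275, and the rest did not. Equal numbers did not pair throughout with naive cultures (-0.16 to 0.151). Non-primed 1 with naive 1 (0.151) and primed 3 with naive 3 (0.101) passed the bound there. The alternatives were other filters, priors, weights and scalings, a replicate block, a macrophage covariate and each library left out.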

Additional observations from a re-analysis of the deposited data

How the results depend on the processing

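For the 47 genes, 0 calls held under every alternative other than sample weights and the leaving out of naive 2. Sample weights gave 0 in primed over naive, 1 in non-primed over naive (Ifitm3, -0.70, adjusted p = 0.0415) and 1 in primed over non-primed cultures (Samd9l, -0.35, adjusted p = 0.038), and the cause was not tested. Leaving out each library in turn gave 0 to 1, 0 to 7 and 0 to 0 calls, with medians of -0.49 to 0.08, -0.65 to -0.12 and 0.087 to 0.39. Sample weights moved the medians to -0.54, -0.46 and -0.03, and the macrophage covariate to 0.392, 0.164 and 0.26. Under the other filters, priors, scalings and fits the medians were -0.15 to -0.13, -0.36 to -0.35 and 0.20. The variance trend, prior, 2 groups alone and replicate block cannot change a group difference here. Only the filters and scalings could move these medians. Under median centring and quantile normalization the median of all tested genes lay between -0.0154 and 0.00842.

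Over all genes, primed over naive cultures gave 16 calls, but 0 with no filter, no variance trend or the 2 groups alone, 1 with the macrophage covariate, 51 with the replicate block, 733 with sample weights and 0 to 356 without a library. Non-primed over naive cultures gave 22, but 0 with no filter, 1 with the covariate, 5 with no variance trend, 7 with the 2 groups alone, 13 with a robust prior, 621 with sample weights and 0 to 355 without a library. Primed over non-primed cultures gave 0, but 2109 with sample weights, and 0 without any library. The replicate block, also with the 2 injected groups alone (chosen after seeing the data), changed no call of the 47 genes. Their medians stayed at -0.13, -0.35 and 0.20, which the block cannot move, since each group holds the same replicate numbers.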
